A study of Homo sapiens with 41 samples.

Results

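The glycolysis enzyme genes examined here were GAPDH, ALDOA, ENO1, PKM, LDHA, PGK1, TPI1, PGAM1, GPI and HK2, 10 of the 20162 protein-coding genes of the annotation. They were chosen by name, as genes of the pathway, and no measured value enters the rule, although earlier results of these data were known when the list was drawn up. A peak was counted at a gene when it overlapped the GENCODE gene on hg19, with 1 kb on either side, by at least 1 bp. By this rule the genes held 16 of the 8720 peaks of the goat antibody CUT&RUN list, 3 of the 2338 peaks of the mouse antibody CUT&RUN list and 0 of the 186 peaks of the ChIP-seq list.

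The peaks mark Elongin A, the large subunit of the Elongin complex, in unperturbed DLD1 cells, a human colon cancer cell line fixed with formaldehyde. In CUT&RUN a nuclease tethered through the antibody cuts the DNA beside the protein, and the fragments set free are sequenced, whereas in ChIP-seq the fixed chromatin is fragmented and precipitated with the antibody. The goat antibody list came from 2 replicates beside 1 goat IgG library, the mouse antibody list from 1 sample, for which 1 mouse IgG library was made, and the ChIP-seq list from 1 sample beside 1 input library. The control behind the mouse antibody fold enrichments is not stated. No list separates replicates and none of the groups was treated or depleted, so no value has a replicate error and no comparison between conditions was possible.

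Glycolysis turns glucose into pyruvate in the cytosol with a net gain of ATP, and lactate dehydrogenase turns pyruvate into lactate. Several of the enzymes studied here are encoded by highly expressed genes in most proliferating cells, and colon cancer cells are known to take up much glucose. Elongin A was purified as a factor that stimulates the elongation rate of RNA polymerase II (RNAPII) in vitro. In DLD1 cells, the authors reported no dramatic effect of its depletion on elongation rates.

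The value of a peak is its fold enrichment, the antibody signal over the local control background at the summit, as the peak caller of the authors gave it. The median fold enrichment was 4.32 in the goat antibody list, with a range of 1.90 to 43.6, and 4.36 in the mouse antibody list, with a range of 1.36 to 12.1. Rank 1 is the highest fold enrichment of a list. The number of antibody reads at each summit could be recovered from the deposited fold enrichment and p-value, and each fold enrichment below carries the 95% Poisson interval of those reads with the background held fixed. These intervals cover counting error only. Of the 8 epithelial marker genes examined, 5 held a goat antibody peak (EPCAM, CDH1, KRT8, KRT18 and CDX2), while KRT19, VIL1 and CDX1 held none. Of 5 markers of other cell types, PTPRC held 2 goat antibody peaks and CD3E, COL1A1, COL1A2 and ALB held none. PECAM1, planned as a marker of endothelium, was not found in the annotation used and was left out. Of all protein-coding genes, 21.7% held a goat antibody peak and 7.79% a mouse antibody peak. With the mouse antibody, 3 of the 8 epithelial markers (CDH1, KRT8 and CDX2) held a peak. PTPRC held 2 mouse antibody peaks as well, and the other markers of other cell types held none.

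The summit sequences of the peaks on which the description turns are shown first, to place them in the genome. Each is 150 bp of the hg19 reference, 5′ to 3′ in the direction of the gene, with the 32 bp at the summit in capitals. The peak in intron 1 of PKM was called with both antibodies (chr15:72519380-72519529, minus strand), TPI1 had the highest fold enrichment of the 10 genes (chr12:6978559-6978708, plus strand), and the peaks of ALDOA (chr16:30076650-30076799, plus strand) and LDHA (chr11:18415711-18415860, plus strand) lay in the promoter. The HK2 sequences show the summits of the overlapping peaks of the goat antibody (chr2:75071040-75071189, plus strand) and the mouse antibody (chr2:75070723-75070872, plus strand).
PKM, intron 1: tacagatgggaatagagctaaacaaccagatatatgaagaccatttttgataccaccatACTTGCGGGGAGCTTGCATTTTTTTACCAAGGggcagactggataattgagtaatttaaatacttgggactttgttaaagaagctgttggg
TPI1, intron 4: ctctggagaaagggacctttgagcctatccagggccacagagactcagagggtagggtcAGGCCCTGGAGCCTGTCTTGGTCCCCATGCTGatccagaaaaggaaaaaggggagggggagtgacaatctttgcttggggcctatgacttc
ALDOA, promoter: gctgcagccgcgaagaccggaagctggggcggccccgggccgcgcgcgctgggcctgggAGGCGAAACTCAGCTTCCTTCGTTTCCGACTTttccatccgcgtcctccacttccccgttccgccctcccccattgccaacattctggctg
LDHA, promoter: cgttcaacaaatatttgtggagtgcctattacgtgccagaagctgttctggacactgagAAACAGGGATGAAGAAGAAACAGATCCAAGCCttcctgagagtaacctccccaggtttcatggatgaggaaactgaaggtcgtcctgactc
HK2, intron 1, goat antibody: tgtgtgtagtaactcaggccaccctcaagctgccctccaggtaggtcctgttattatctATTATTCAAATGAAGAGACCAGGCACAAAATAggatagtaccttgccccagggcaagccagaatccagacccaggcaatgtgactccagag
HK2, intron 1, mouse antibody: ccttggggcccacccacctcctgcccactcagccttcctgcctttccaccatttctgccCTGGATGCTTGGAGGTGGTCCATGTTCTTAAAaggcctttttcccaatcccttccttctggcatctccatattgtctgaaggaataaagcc
The GC content of these windows ran from 38.7% at PKM to 68% at ALDOA. Each of the capitalized stretches has 1 copy in the genome.

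A goat antibody peak was found at 8 of the 10 enzyme genes, where 21.7% of all protein-coding genes had one. ENO1, PKM and LDHA held 3 peaks each, a number reached by 2.86% of protein-coding genes, HK2 and TPI1 held 2 each, and GAPDH, ALDOA and PGAM1 held 1 each. PGK1 and GPI held none. Per length of gene and flanks, the 10 genes had 3.75 goat antibody peaks per 100 kb, against 0.509 for all protein-coding genes. Several of the genes are short, and density per length was not compared at matched length. The authors reported stronger Elongin A enrichment at genes with higher expression. The protein-coding genes were not matched to the 10 genes for expression, so the part of expression in these contrasts was not tested. With the mouse antibody 2 of the 10 genes, PKM and HK2, held a peak, where 7.79% of protein-coding genes did, and the density was 0.703 against 0.128 peaks per 100 kb. By the representative transcript of each gene, all 3 mouse antibody peaks were in the gene body. They lay at 2 of the 10 genes, beside 4.63% of protein-coding genes with a body peak. No gene of the 10 had a mouse antibody promoter peak, beside 1.97% of protein-coding genes. Over all pairs of a protein-coding gene and a mouse antibody peak, 59.1% were in the body and 21.8% in the promoter. With the TSS and end of every annotated transcript, 2 of the 3 peaks were in the body and 1 was at an end. No gene of the 10 held a ChIP-seq peak, where 0.784% of protein-coding genes did, and the nearest ChIP-seq peak to any of them lay 1520 kb from ENO1.

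**Figure D1:**
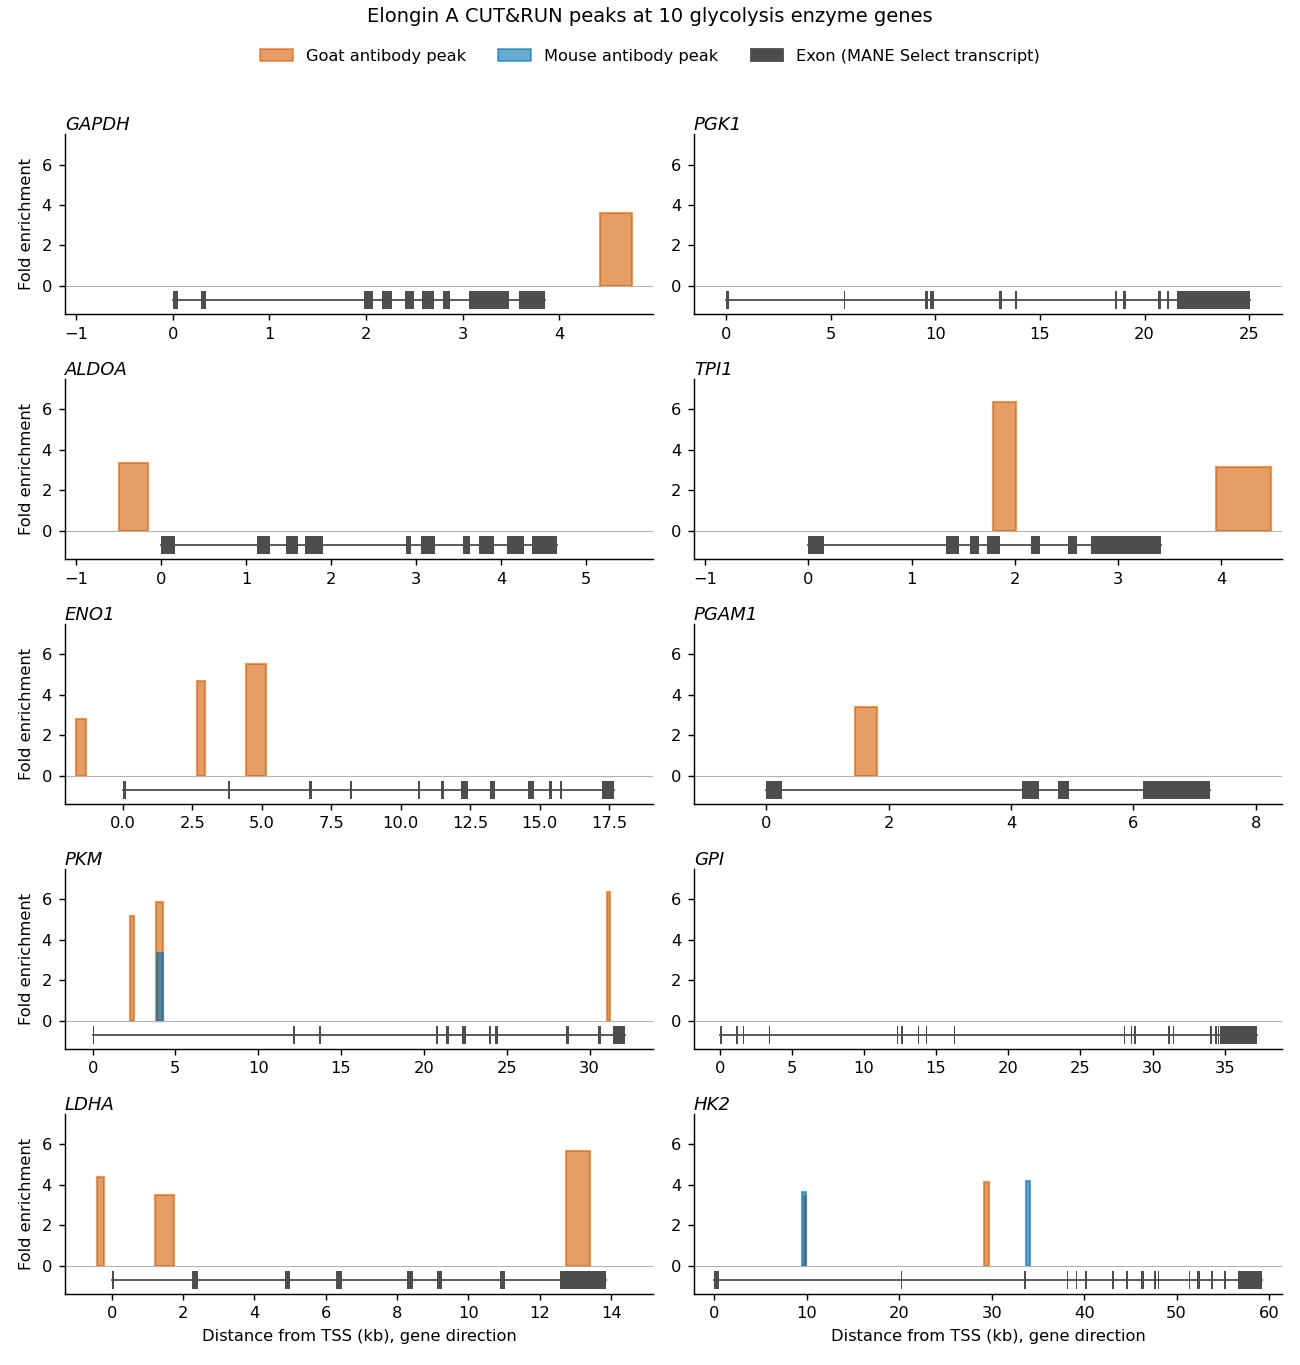
Peaks at the 10 glycolysis enzyme genes, drawn in the direction of each gene with the distance from its TSS in kb on the horizontal axis and the fold enrichment over IgG as the height of each box; dark boxes are exons. The goat antibody peaks are spread over gene starts, introns and ends at 8 genes, the mouse antibody peaks sit in introns of PKM and HK2, and PGK1 and GPI are empty.

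HK2, GPI and ALDOA act in the upper part of the pathway. HK2, the hexokinase that traps glucose by phosphorylation and is raised in many tumors, lies at chr2:75061254-75120486. Its goat antibody peaks had fold enrichments of 3.46 (95% interval 2.25 to 5.11, 23 reads, rank 6960) in intron 1, 9861 bp from the TSS, and 4.16 (2.63 to 6.29, 20 reads, rank 4828) in intron 2, 29425 bp from the TSS. Both lay below the median of the list and their intervals overlap. The mouse antibody peaks of HK2 had fold enrichments of 3.64 (1.97 to 6.28, 11 reads, rank 1881 of 2338) in intron 1 and 4.18 (2.26 to 7.21, 11 reads, rank 1356) in intron 3, 33850 bp from the TSS. The intron 1 peaks of the antibodies shared 187 bp, with summits 317 bp apart, and the other HK2 peaks were called with 1 antibody each.

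GPI, the isomerase that converts glucose phosphate into fructose phosphate, lies at chr19:34850385-34893318. No peak of any list overlapped it, and the nearest goat antibody peak lay 291 kb away. ALDOA, the aldolase that splits fructose bisphosphate into triose phosphates, lies at chr16:30075485-30081778. Its goat antibody peak at chr16:30076592-30076930 was in the promoter, with the summit 356 bp upstream of the TSS, and had a fold enrichment of 3.33 (2.23 to 4.82, 26 reads, rank 7245). This was the lowest of the strongest peaks of the 8 genes, and it had the highest GC content of the 16 peaks, 70.2%, with 39 CpG dinucleotides in 339 bp. The summit also lies inside a longer annotated gene without a symbol, and the TSS of a long noncoding RNA gene on the opposite strand is 579 bp away.

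TPI1, GAPDH and PGK1 handle the triose phosphates. TPI1, which interconverts them, is the shortest of the 10 by its representative transcript (3.418 kb) and lies at chr12:6976283-6980112. Its peak in intron 4, at chr12:6978483-6978701, had a fold enrichment of 6.36 (4.10 to 9.46, 22 reads) and rank 859, the highest value at any of the 10 genes. The other TPI1 peak had 3.17 (2.03 to 4.76, 21 reads, rank 7669) and its summit lay 932 bp past the transcript end, within an annotated UTR of the neighboring gene SPSB2. The intervals of these 2 peaks overlap although their fold enrichments differ, and the numbers of antibody reads were nearly the same, with solved background levels of 2.13 and 5 reads.

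GAPDH, which oxidizes glyceraldehyde phosphate and is widely used as a reference gene, lies at chr12:6643678-6647540. Neither its promoter nor its body held a peak. Its 1 peak at chr12:6648100-6648434 lay 0.560 kb past the gene, had a fold enrichment of 3.57 (2.04 to 5.90, 13 reads, rank 6595), and had its summit in an annotated UTR of the next gene, IFFO1, 670 bp from the TSS of a long noncoding RNA gene without a symbol. With 13 reads it was the peak with the fewest reads among the 16. Just outside the 1 kb limit, a peak 1536 bp upstream had a fold enrichment of 4.93 and a peak 1240 bp downstream had 5.69, both above the counted one. Since IFFO1 and GAPDH meet at their ends, a peak there cannot be assigned to either gene by position.

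PGK1, the kinase of the first ATP-forming step, lies on the X chromosome at chrX:77166236-77384792, and no peak of any list overlapped it. The nearest goat antibody peak lay 3695 kb away, and the nearest mouse antibody peak 6413 kb. The share of genes this far from a peak is not given here. Its annotated gene span of 218557 bp exceeds its representative transcript of 25048 bp, so that the largest window of the 10 genes was also empty. A peak that was not called is not evidence that the protein was absent, and library totals are not part of the lists.

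PGAM1, ENO1, PKM and LDHA act at the end of the pathway. PGAM1, the mutase that moves the phosphate within phosphoglycerate, lies at chr10:99185948-99193201. Its 1 goat antibody peak had a fold enrichment of 3.40 (2.07 to 5.32, 17 reads, rank 7118) in intron 1, 1488 bp from the TSS. ENO1, the enolase that forms phosphoenolpyruvate, lies on the minus strand at chr1:8921059-8939249.

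The ENO1 peaks had fold enrichments of 2.81 (1.86 to 4.09, 25 reads, rank 8339) at 1671 bp upstream of the TSS, 4.68 (2.93 to 7.16, 19 reads, rank 3322) in intron 1 and 5.51 (4.26 to 7.02, 63 reads, rank 1759) in intron 2. The intron 2 peak, at chr1:8933605-8934320, was the widest of the 16 at 716 bp and had the most reads. By q-value it was by far the highest of the 16, with a −log10 q-value of 19.7 and rank 186 of 8720. The upstream peak, whose nearest TSS of another gene was that of the antisense gene ENO1-AS1, had rank 7433 by q-value. The solved background at the intron 2 summit, 9 reads, was also the highest of the 16.

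PKM, the pyruvate kinase that forms ATP and pyruvate and whose alternative exons give isoforms M1 and M2, lies on the minus strand at chr15:72491370-72524160. All of its goat antibody peaks were in the gene body and above the median of the list. The fold enrichments were 5.18 (3.66 to 7.13, 35 reads, rank 2284) at 2418 bp from the TSS and 5.88 (4.17 to 8.07, 36 reads, rank 1252) at 4076 bp, both in intron 1, and 6.34 (3.75 to 10.2, 15 reads, rank 864) in intron 10, 31140 bp from the TSS. The mouse antibody peak had a fold enrichment of 3.36 (2.18 to 4.97, 23 reads, rank 2083 of 2338) at chr15:72519298-72519654. It shared 357 bp with the second of these goat antibody peaks, and their summits were 1 bp apart, in the capitalized stretch of the PKM sequence above. The shared site was at the 85.7 percentile of the goat antibody list and at the 10.9 percentile of the mouse antibody list.

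LDHA, the subunit of lactate dehydrogenase that favors the formation of lactate, lies at chr11:18416107-18429972 and was the only gene of the 10 with peaks in the promoter, in an intron and in the last exon. The fold enrichments were 4.41 (2.61 to 7.06, 15 reads, rank 4063) at 324 bp upstream of the TSS, 3.47 (2.40 to 4.87, 31 reads, rank 6786) in intron 1 and 5.69 (3.77 to 8.27, 25 reads, rank 1506) in exon 8, the 3′ UTR, 12834 bp from the TSS. The strongest was the last one, and it was the only one of the 16 with a summit in an exon. Its 32 bp summit sequence has 3 copies in the genome, whereas the other 15 summits have 1 copy each, so that reads there cannot be assigned to 1 locus from the summit sequence alone. The intron 1 peak had a GC content of 60% and 34 CpG dinucleotides.

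**Figure D2:**
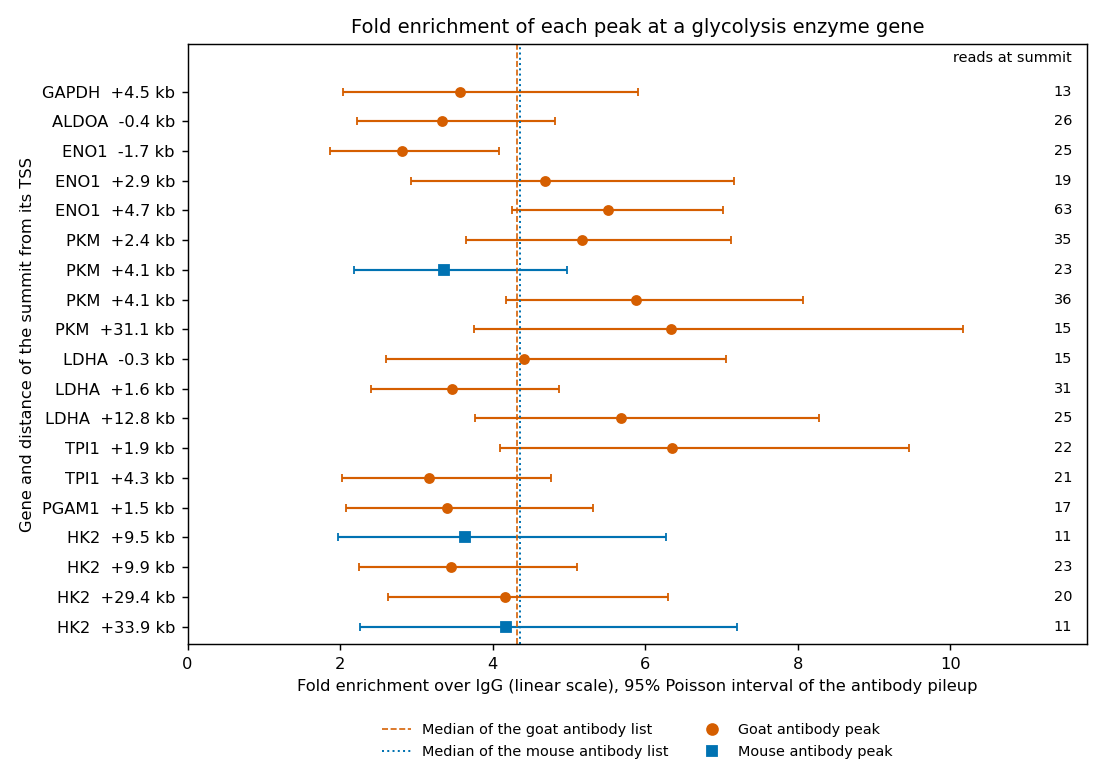
Fold enrichment over IgG (linear scale) of the 16 goat antibody peaks (circles) and 3 mouse antibody peaks (squares) at the 10 genes, each named by its gene and the distance of its summit from the TSS, with bars for the 95% Poisson interval of the antibody reads given at the right. Nearly all intervals overlap one another, and 8 of the 16 circles lie above the dashed median of their list.

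The order of the genes by their strongest goat antibody peak was TPI1, PKM, LDHA, ENO1, HK2, GAPDH, PGAM1 and ALDOA, from 6.36 to 3.33. None of the 28 pairs in this order had separate intervals, so the intervals do not settle the order. Overlapping intervals do not show that the values are equal, and the counting error of the background is not part of them. Among the 120 pairs of all 16 peaks, 3 had separate intervals, each of them between the upstream ENO1 peak and a stronger one. The stronger peaks were those in intron 2 of ENO1, intron 1 of PKM (5.88) and intron 4 of TPI1. The upstream ENO1 peak overlaps the 1 kb flank, but its summit lies outside. With summits required inside the gene and its flanks, 15 peaks remained and these 3 pairs dropped out. The 16 peaks had a median fold enrichment of 4.28, close to the 4.32 of the whole list, and 22.5 reads at the median against 22. The highest 20% of the list held 4 of the 16 peaks and the lowest 20% held 4. A fold enrichment of at least 5 was found at 6 of the 16, and at 2624 of the 8720 peaks of the list. Over the 8 genes, the strongest peak stood at a median percentile of 62.2, and at 61.0 over all protein-coding genes with a peak.

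**Figure D3:**
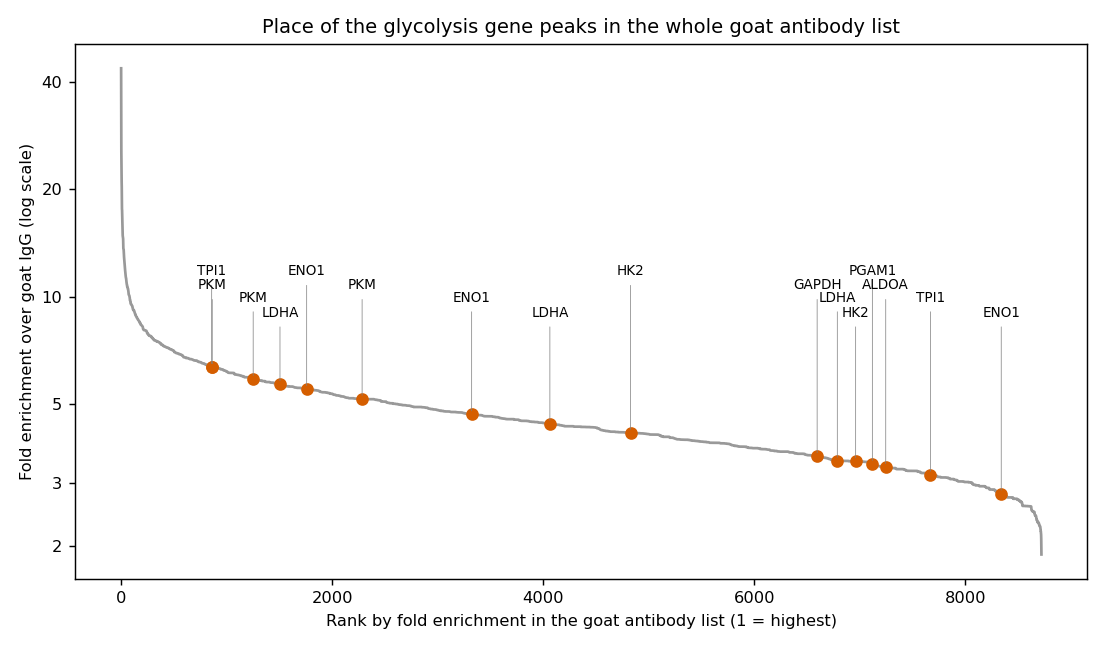
Fold enrichment over goat IgG (log scale) of all 8720 goat antibody peaks by rank, as a grey line, with the 16 peaks at glycolysis enzyme genes as labelled points. The points run from rank 859 (TPI1) to rank 8339 (ENO1), and none lies in the steep part at the left that reaches 43.6.

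By position, 2 of the 16 peaks were in a promoter window, which ran from 1000 bp before the TSS to 100 bp after it, at ALDOA and LDHA, 11 were in the gene body at 6 genes, 2 were at the transcript end, at GAPDH and TPI1, and 1 was farther upstream, at ENO1. A promoter peak was thus found at 2 of the 10 genes, beside 5.95% of protein-coding genes, a body peak at 6, beside 14.1%, and an end peak at 2, beside 1.53%. Over all pairs of a protein-coding gene and a goat antibody peak, 16.8% were in the promoter, 64.7% in the body and 4.39% at the end. Introns held 10 of the 16 summits, of which 6 were in intron 1. Within 5000 bp of the TSS lay 12 summits, but only 2 lay within 500 bp. The same counts over all goat antibody peaks are not given here. The representative transcripts of GAPDH (3.855 kb), ALDOA (4.655 kb) and TPI1 (3.418 kb) are themselves shorter than 5000 bp. The position classes refer to 1 representative transcript for each gene. With the TSS and end of every annotated transcript, the intron 1 peak of LDHA, the peak of PKM at 2418 bp and the TPI1 peak in intron 4 also counted as promoter peaks, which gave 5 promoter peaks at 4 genes, beside 8.97% of protein-coding genes. The intron 1 peaks of ENO1 and PGAM1, the intron 10 peak of PKM and the exon 8 peak of LDHA then counted as end peaks. This left 4 body peaks at 3 genes, beside 13.3%, and gave 6 end peaks at 6 genes, beside 2.84%.

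The peaks at the enzyme genes had a median GC content of 50.5%, against 44.5% for all goat antibody peaks, and a median width of 347.5 bp against 362 bp. A mouse antibody peak overlapped 2 of the 16 (12.5%), at PKM and HK2, and 726 of all goat antibody peaks (8.33%). From the other side, 2 of the 3 mouse antibody peaks at these genes and 757 of all 2338 (32.4%) overlapped a goat antibody peak. At 6 of the 16 summits, those of ALDOA, HK2 in intron 1, TPI1 past its end, PKM at 2418 bp, and ENO1 upstream and in intron 2, the solved background was a whole number of 5 to 9 reads within 0.001, and so it was at 4171 of the 8720 peaks of the list (47.8%). The part of such IgG reads in the fold enrichments was not tested.

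Glycolysis genes have many processed pseudogenes, which could share reads with their parents. Of the 102 annotated pseudogenes named after the 10 genes, 65 belong to GAPDH and 13 to PGAM1. None of the 102 held a peak in any list, including those of LDHA, whose 3′ UTR summit has more than 1 copy. The share of all pseudogenes with a peak is not given here. Processed pseudogenes copy exons, and only 1 of the 16 goat antibody summits lay in an exon. The count therefore cannot show whether reads were shared, and read sharing was not tested.

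The sequence of the promoters, from 250 bp upstream to 50 bp downstream of the TSS, was searched on both strands for short words. GGGCGG, the core of the GC box, was present in 8 of the 10 and in 62.4% of 18922 promoters. ACGTG, the core of the hypoxia response element, was found at 6 (GAPDH, ALDOA, LDHA, PGK1, PGAM1 and HK2) and at 23.4% of promoters. CACGTG, the E-box to which MYC binds and which contains ACGTG, was found at LDHA alone and at 8.82% of promoters. CCAAT was found at 4 genes and at 36.0% of promoters, and TATAAA at GAPDH alone and at 9.44%. A search of the 200 bp at each summit, added after the peaks were seen, found ACGTG at 2 of the 16 summits and at 10.6% of all goat antibody summits, GGGCGG at 3 and 8.51%, CCAAT at 4 and 24.9%, and CACGTG and TATAAA at none of the 16, with 2.31% and 15.5% in the list. The matches describe the sequence only.

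Another 27 genes of the pathway, comprising isozymes, glucose and lactate transporters and regulators, were examined by the same rule. Of these, 7 held a goat antibody peak (21 peaks), 3 held a mouse antibody peak and none held a ChIP-seq peak, beside the 21.7%, 7.79% and 0.784% of all protein-coding genes. The isozymes of the 10 enzymes, 14 genes separated from the rest after the values were seen, held 1 goat antibody peak in all, at HKDC1, a hexokinase-like gene (fold enrichment 3.88, rank 5743, intron 1), and no mouse antibody peak. HK1, ALDOC, ENO2, LDHB and the testis forms PGK2 and LDHC were among the isozymes with none. Of the other 13 genes, 6 held a goat antibody peak.

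PFKP, the platelet form of phosphofructokinase, held 2 goat antibody peaks in intron 2, with fold enrichments of 4.72 (3.26 to 6.63) and 2.68 (1.84 to 3.78), and the weaker one overlapped a mouse antibody peak of 4.01 (2.46 to 6.21) by 268 bp. SLC16A1, a lactate transporter, held 2 goat antibody peaks, with 3.45 in intron 1 and 4.05 in intron 4, and SLC16A3, the lactate exporter, held 1 with 3.90, 6978 bp past the end of its representative transcript but within its annotated span. That summit also lies inside CSNK1D, which encodes a casein kinase, 473 bp from the TSS of that gene. PFKFB4, a regulator of phosphofructokinase, held 1 peak upstream of the TSS of its representative transcript, with 4.22. By representative transcripts, the only promoter peak of the goat antibody among the 27 genes was at ADPGK, an ADP-dependent glucokinase, with a fold enrichment of 4.91 at 404 bp upstream and 850 bp from the TSS of ADPGK-AS1, and the only one of the mouse antibody was at BPGM, which makes bisphosphoglycerate, with 3.52 at 408 bp upstream. With every transcript, 2 peaks of SLC2A1 also counted, which gave 3 goat antibody promoter peaks at 2 genes.

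**Figure D4:**
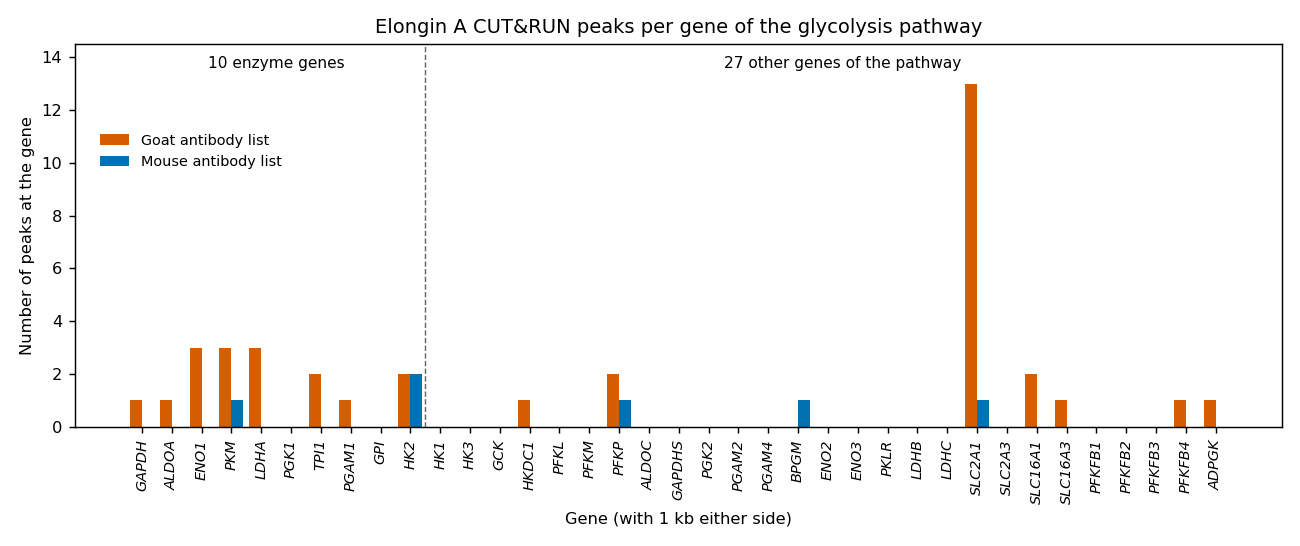
Number of peaks (vertical axis) at each of the 10 glycolysis enzyme genes, left of the dashed line, and at 27 other genes of the pathway, with bars for the goat antibody and the mouse antibody list. SLC2A1 with 13 goat antibody peaks stands above all others, 8 of the 10 enzyme genes hold 1 to 3, and most isozymes hold none.

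SLC2A1, which encodes the glucose transporter GLUT1 and so feeds the pathway, held 13 goat antibody peaks, and 9 of the 20162 protein-coding genes, itself included, held as many or more. It is described in detail because of this count, which was seen before it was chosen. Of the 13 summits, 6 lay in intron 1, 5 in intron 2 and 2 past the transcript end, from 7862 to 34581 bp from the TSS, and none in the promoter of the representative transcript. The summits past the end lay 872 and 173 bp from the TSS of a gene without a symbol. Their fold enrichments ran from 3.82 to 8.26, and the highest (5.83 to 11.4, 35 reads, rank 204), in intron 2 at chr1:43407656-43408249, exceeded every peak of the 10 enzyme genes, though its interval overlaps that of TPI1. A mouse antibody peak with a fold enrichment of 4.23 (2.34 to 7.15) shared 494 bp with a goat antibody peak of 4.17 (2.83 to 5.96), with summits 23 bp apart. The sequence at the strongest summit (chr1:43407703-43407852, minus strand) holds ACGTG on the opposite strand, across the left edge of the capitals, where it reads CACGT.
SLC2A1, intron 2: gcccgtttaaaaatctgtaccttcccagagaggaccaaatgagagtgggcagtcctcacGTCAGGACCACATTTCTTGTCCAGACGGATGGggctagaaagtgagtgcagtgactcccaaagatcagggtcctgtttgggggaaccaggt

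**Figure D5:**
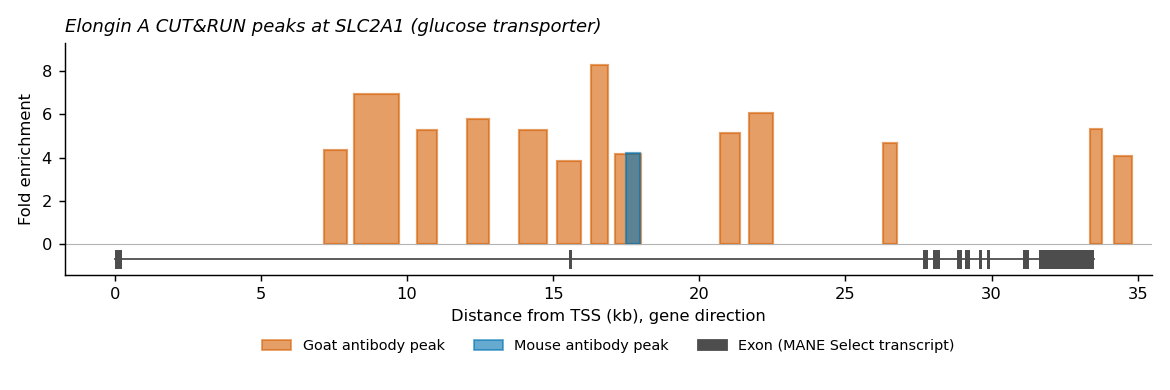
Peaks at SLC2A1 in the direction of the gene, with distance from the TSS in kb on the horizontal axis and the fold enrichment over IgG as the height of each box; dark boxes are exons. The 13 goat antibody peaks cover introns 1 and 2 and the transcript end, and the mouse antibody peak lies within one of those in intron 2.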

How the data were processed

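Read pairs had been mapped to hg19 (Bowtie2) and freed of PCR duplicates (Picard) by the authors, who then ran MACS2 at default settings. Goat IgG is named as the control for CUT&RUN and input for ChIP-seq, and whether the mouse antibody list was called against goat or mouse IgG is not given in the sources used here. Whether the goat antibody replicates were pooled before calling is not given in the sources used here. The deposited lists give for each peak a fold enrichment, a linear ratio over the control background, the −log10 p-value and −log10 q-value of the authors' peak caller, and a score derived from the q-value, which was not used. They hold no read totals, so library depth is unknown.

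Reads at summits were recovered by solving the MACS2 formulas for fold enrichment and Poisson p-value. A whole number of reads matched the −log10 p-value within 0.001 for 100% of the goat antibody peaks, with antibody reads scaled by 0.859, for 100% of the mouse antibody peaks and for 97.8% of the ChIP-seq peaks. The median was 22 reads (range 9 to 726), 14 (5 to 782) and 37 (12 to 471), respectively.

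Gene models were those of GENCODE release 44 mapped back to hg19 (GRCh37), with the MANE Select transcript as representative. Peaks were classed by their centre as promoter (1000 bp upstream to 100 bp downstream of the TSS), end (100 bp upstream to 1000 bp downstream), body or outside. Named are all 10 enzyme genes, the other pathway genes with a peak, and neighbors with a TSS within 1 kb. SPSB2, IFFO1, ENO1-AS1 and the isozymes listed without a peak were named after their values were seen. The genes, marker and pathway lists were chosen with earlier results of these data known. Since no list separates replicates, no test was run, and counts stand beside those of all protein-coding genes. Another gene of the pathway list is not reported here. The procedures were tested on simulated data. Python 3.11.15 was used with numpy 2.4.6, scipy 1.17.1, pandas 2.3.3, pysam 0.24.0 and matplotlib 3.10.9. Expression, nascent RNA and polymerase ChIP-seq samples were not analysed here.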

Additional observations from a re-analysis of the deposited data

How the results depend on the processing

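Of 38 alternatives over 9 counts and medians above 0, 29 left the value within 1.5 times the main one, among them no flanks, flanks of 5 kb, the representative transcript in place of the gene, summits in place of peak overlap and merging of peaks within 1 kb. Within this bound, the goat antibody counts fell from 8 genes and 16 peaks to 7 genes and 12 peaks without flanks. With a q-value under 0.001 they fell to 6 genes and 12 peaks. The other 9 alternatives moved the value further. With a fold enrichment of at least 5, 4 of the 10 enzyme genes held a goat antibody peak (6 peaks), and 0 held a mouse antibody peak (0 peaks). In the whole goat antibody list, 2624 of the 8720 peaks reached this fold enrichment. With a q-value under 0.001, 1 gene held a mouse antibody peak (1 peak). The shares of all protein-coding genes at these stricter settings are not given here. With the TSS and end of every transcript, 4 genes held a promoter peak of the goat antibody, and, as a choice added after the values were seen, 3 held a body peak and 6 an end peak. The cause of these moves is the construction of each setting, which keeps fewer peaks or adds promoter and end windows. Another 21 alternatives concern counts of 0, and these stayed at 0. Stricter settings cannot change such a count, whereas wider ones, such as flanks of 5 kb or the TSS and end of every transcript, could have raised it. With flanks of 5 kb, TPI1 became the third gene with a mouse antibody peak. No paired analysis was possible because no list separates the replicates, and for the same reason no replicate could be left out. The ChIP-seq and mouse antibody lists rest on 1 sample each.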
